A study of Mus musculus with 15 samples.

Results

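Cells that kept the Brachyury reporter for 48 h after the neuromesodermal progenitor (NMP) stage were compared with the NMPs they were cultured from. The comparison used 5 of the 15 sequenced libraries, namely 2 libraries of Tbxt 48 h cells and 3 libraries of NMPs. All were bulk RNA libraries of sorted STR-KI cells, a mouse embryonic stem cell line with the genotype Sox2::mCherry/WT, Tbxt::GFP/WT. Each cell thus carried a red reporter on 1 allele of Sox2 and a green reporter on 1 allele of Tbxt, the gene of Brachyury, in both groups. Tbxt 48 h cells came from NMPs kept for a further 48 h in FGF and CHIR, an activator of WNT signalling, and were sorted as Tbxt::GFP+. NMPs were sorted as positive for both reporters after 48 h in 10 ng/mL FGF2 and 24 h in FGF2 with 5 µM CHIRON99021. Both groups therefore had FGF and a WNT activator in the medium. No label says if the libraries in each group are separate cultures, so p-values measure the spread between libraries, which may be technical.

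NMPs are bipotent cells of the tail end of the embryo that hold Sox2 and Brachyury together and give rise to spinal cord and to paraxial mesoderm. On the way to paraxial mesoderm they leave the epithelial epiblast and become presomitic mesoderm. There Tbx6 and Msgn1 fix the fate, and Notch, WNT and FGF signals pace the segmentation clock that later cuts the tissue into somites. Retinoic acid from the somites opposes FGF and WNT in this region, and Cyp26a1 degrades it.

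Values are CPM, read counts scaled to a library total of 1000000, for named genes. The 2 Tbxt 48 h libraries held 9.88 and 5.93 M reads and the 3 NMP libraries 7.71, 6.22 and 8.61 M (M, 1000000 reads), as inferred from the value of 1 read. A level of 3 reads corresponded to 0.304 to 0.506 CPM in Tbxt 48 h cells and to 0.348 to 0.482 CPM in NMPs, which covers counting error only. Testing covered the 12943 genes that reached 5 CPM in 2 or more of the 15 libraries, with limma on log2(CPM + 1). A value with ± is the log2 fold change ± SE on that scale, Tbxt 48 h minus NMP, and it understates changes of low genes. A gene is said to rise or fall where the Benjamini-Hochberg adjusted p was under 0.05. Genes with at most 3 reads in every library of a group are given as levels.

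Of the genes tested, 1012 rose and 1364 fell in Tbxt 48 h cells, 2376 in all or 18.4% (7.82% higher and 10.5% lower). Each count of rises and falls in a gene list below is to be read beside these shares over all genes. Libraries of the 2 groups did not overlap in any of these 2376 genes, nor in 4514 genes that did not pass, so 53.2% of genes had groups that do not overlap. The count was 702 without Tbxt 48 h replicate 2, 1469 without NMP replicate 1 and 1507 without NMP replicate 3. The median log2 fold change over all genes was −0.02. In bulk RNA, fewer cells of a type and less RNA per cell cannot be told apart, and this holds for every fall given here.

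The sorted reporters came first, as a check of the labels: the gates chose cells on both genes, so their levels are a description with no test. Tbxt, listed in the table under its older symbol T, had 222 and 216 CPM in Tbxt 48 h cells, against 284, 431 and 445 CPM in NMPs. Every Tbxt 48 h library lay below every NMP library, although both groups were sorted as Tbxt::GFP positive. Sox2, which keeps NMPs open to the neural fate, had 34.2 and 38.5 CPM in Tbxt 48 h cells, against 164, 241 and 224 CPM in NMPs. The groups did not overlap, and of these groups NMPs alone were gated on Sox2::mCherry. The 4 NMP markers, which are both reporters, Nkx1-2 and Cdx2, summed to 702 to 724 CPM in Tbxt 48 h cells and 1442 to 1680 CPM in NMPs, a difference that the gates set in part. The 4 presomitic mesoderm markers summed to 549 to 639 CPM in Tbxt 48 h cells and 73.5 to 81.2 CPM in NMPs.

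Several presomitic mesoderm factors rose. Of the 19 transcription factors and markers on this list, 10 passed the filter on low values, of which 4 rose and none fell (median log2 fold change 1.04). Tbx6, the T-box factor that commits cells to paraxial mesoderm and represses Sox2, had 119 and 57.9 CPM in Tbxt 48 h cells, against 2.46, 1.77 and 1.97 CPM in NMPs. Its libraries of the 2 groups stood far apart (4.78 ± 0.38), although the Tbxt 48 h libraries themselves differed by about 2-fold. Cited1, a transcriptional coactivator of presomitic mesoderm, had 321 and 227 CPM in Tbxt 48 h cells, against 29.04, 25.1 and 28.3 CPM in NMPs (3.25 ± 0.33). Hes7, the oscillating repressor at the core of the segmentation clock, had 272 and 242 CPM in Tbxt 48 h cells, against 62.1, 54.8 and 63.05 CPM in NMPs (2.08 ± 0.30). These 3 genes had adjusted p of at most 0.00050, and none of their libraries overlapped between the groups.

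Foxc1, a forkhead factor needed for somite formation, stood at 118 and 132 CPM in Tbxt 48 h cells, against 2.85, 3.54 and 5.46 CPM in NMPs (4.70 ± 0.94, adjusted p = 0.0084 by limma). Without Tbxt 48 h replicate 2 its adjusted p was 0.074. Msgn1, a basic helix-loop-helix factor of presomitic mesoderm, did not pass the filter. It had 6.48 and 3.71 CPM in Tbxt 48 h cells, against 0.13, 0.161 and 0 CPM in NMPs, so both Tbxt 48 h libraries were above all NMP libraries, which held at most 3 reads each. Foxc2, the partner of Foxc1, was as low, with 3.85 and 2.36 CPM in Tbxt 48 h cells, against 0, 0.161 and 0.116 CPM in NMPs. Factors of the anterior presomitic mesoderm were near 0. Mesp2, which sets the somite border, had 0.202 and 0 CPM in Tbxt 48 h cells, against 0.389, 0.643 and 0.929 CPM in NMPs, and Ripply1 and Ripply2, which switch Tbx6 off there, were listed at 0 in both Tbxt 48 h libraries. The somite factor Tcf15 had 6.88 and 9.79 CPM in Tbxt 48 h cells, against 13.5, 8.52 and 12.1 CPM in NMPs and Pax3, which marks dorsal somite and neural tube, had 10.02 and 11.3 CPM in Tbxt 48 h cells, against 6.87, 7.56 and 6.39 CPM in NMPs, and neither passed (adjusted p = 0.60 and 0.75).

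**Figure D1:**
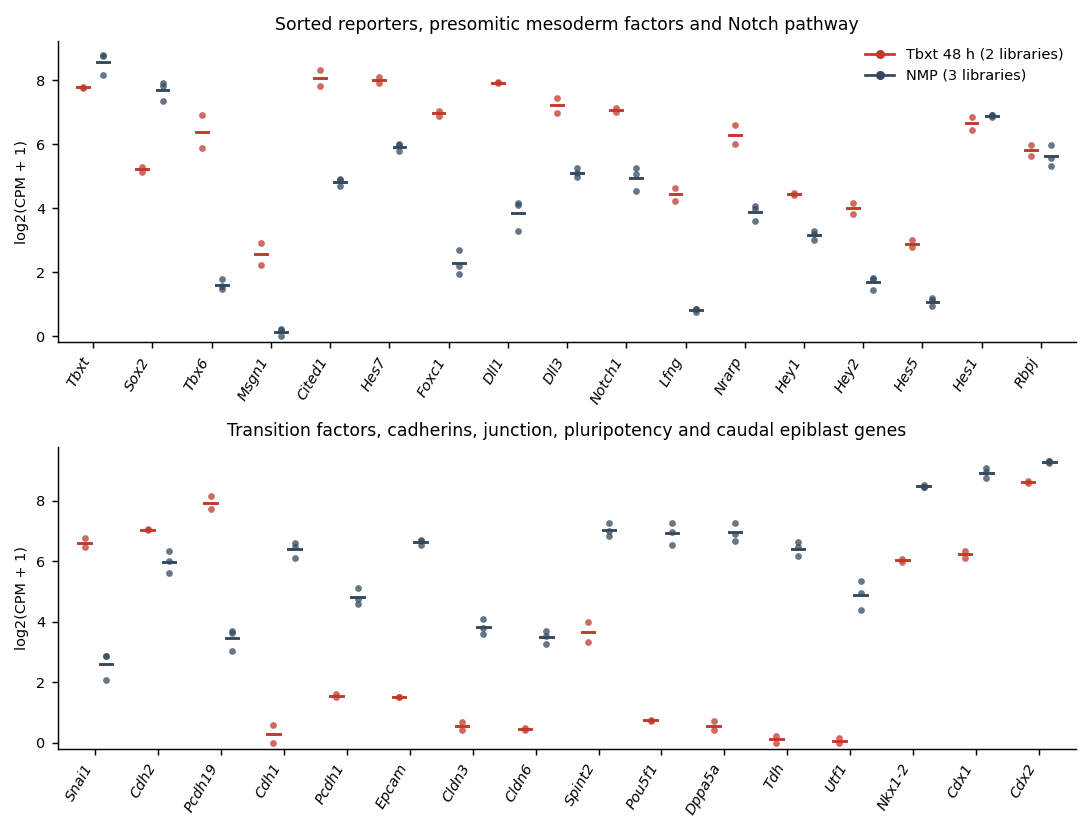
Levels of 33 genes on a log2(CPM + 1) axis, with a point for each library and a line at the group mean, Tbxt 48 h in red and NMP in dark blue. Tbx6, Dll1, Lfng and Snai1 stood higher in both Tbxt 48 h libraries, Cdh1, Epcam, Pou5f1 and Tdh stood lower, and Hes1 and Rbpj did not separate.

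Notch genes moved with them. Of 22 pathway and clock genes, 19 were tested, and 10 rose and 1 fell, against 7.82% and 10.5% of all genes (median 0.94). Among the ligands, Dll1, which activates Notch receptors on neighbouring cells, had 242 and 245 CPM in Tbxt 48 h cells, against 8.81, 16.9 and 16.1 CPM in NMPs (4.08 ± 0.44). Dll3, which acts within the cell and is needed for the clock, had 173 and 126 CPM in Tbxt 48 h cells, against 30.3, 37.6 and 33.4 CPM in NMPs (2.10 ± 0.41). Both ligand genes were several-fold higher in each Tbxt 48 h library than in any NMP library. Jag2, a ligand of the other class, fell, with 1.72 and 1.01 CPM in Tbxt 48 h cells, against 7, 7.24 and 7.08 CPM in NMPs (−1.79 ± 0.26). Jag1, of the same class as Jag2, rose (0.94 ± 0.31, adjusted p = 0.0499 by limma). It had 31.8 and 44.2 CPM in Tbxt 48 h cells, against 15.7, 20.9 and 21.0 CPM in NMPs. The Jag1 call ended with either other pseudocount and without any 1 NMP or Tbxt 48 h library. It also ended with no filter, with quantile normalization and with the replicate block.

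Among receptors and their modifiers, Notch1 had 139 and 127 CPM in Tbxt 48 h cells, against 22.3, 37.1 and 32.9 CPM in NMPs (2.11 ± 0.25). Notch2, Notch3 and Rbpj, the DNA-binding partner of the cleaved receptor, did not pass (adjusted p = 0.40, 0.49 and 0.53). Lfng, the sugar transferase whose cycling tunes Notch in the clock, had 23.99 and 17.9 CPM in Tbxt 48 h cells, against 0.778, 0.804 and 0.697 CPM in NMPs (3.63 ± 0.28). Direct Notch targets rose too, though not every one. Nrarp, a feedback inhibitor, had 95.4 and 63.3 CPM in Tbxt 48 h cells, against 11.1, 14.6 and 15.7 CPM in NMPs (2.42 ± 0.34). Hey2, a repressor of the Hes family, had 13.2 and 17.05 CPM in Tbxt 48 h cells, against 1.69, 2.41 and 2.55 CPM in NMPs (2.32 ± 0.40), and Hey1 and Hes5 were higher by 1.28 ± 0.24 and 1.81 ± 0.31. Hes1, a target in many tissues, had 116 and 86.7 CPM in Tbxt 48 h cells, against 115, 120.4 and 119 CPM in NMPs, so that the groups overlapped and no change was called (−0.24 ± 0.45, adjusted p = 0.76). The coactivator gene Maml3 rose (2.14 ± 0.35). Other than Jag1, the Notch genes said to rise or fall here had adjusted p of at most 0.0042 by limma.

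The RefSeq promoter windows of 3 clock or presomitic genes that hold the motif marked below are printed. Of these, Hes7 and Lfng rose and Msgn1 was near 0 in NMPs. Hes5 and Hey2, which also rose and hold the motif, are not printed. The printed windows therefore do not show how common the motif is. Each run gives the 200 bases before the annotated start on the gene's strand, 5′ to 3′, in GRCm38.p6. Capitals mark GTGGGAA or its reverse complement TTCCCAC, the core motif bound by Rbpj.
Hes7: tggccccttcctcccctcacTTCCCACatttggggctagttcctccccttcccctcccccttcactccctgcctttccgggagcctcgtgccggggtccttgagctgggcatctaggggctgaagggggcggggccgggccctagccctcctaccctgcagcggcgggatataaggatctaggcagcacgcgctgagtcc
Lfng: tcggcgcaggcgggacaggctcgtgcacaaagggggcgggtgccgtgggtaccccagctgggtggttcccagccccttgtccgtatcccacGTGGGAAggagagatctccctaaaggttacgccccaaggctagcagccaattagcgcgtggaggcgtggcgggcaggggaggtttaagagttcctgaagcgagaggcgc
Msgn1: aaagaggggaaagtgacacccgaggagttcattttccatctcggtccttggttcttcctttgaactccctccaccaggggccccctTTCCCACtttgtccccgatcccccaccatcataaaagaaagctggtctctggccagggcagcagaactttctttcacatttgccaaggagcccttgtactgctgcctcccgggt

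The Hes7 window lies at chr11:69120253-69120452 on the + strand, with its match starting 180 bases before the start on the opposite strand. The Lfng window lies at chr5:140607141-140607340 on the + strand, with its match 109 bases before the start on the same strand. The Msgn1 window lies at chr12:11208949-11209148 on the − strand, with its match 114 bases before the start on the opposite strand. Over windows of 250 bases before to 50 after a start, 6.38% of 32851 RefSeq promoters hold this motif on either strand. In the Notch list 18 of 22 genes had a window and 3 held it (Lfng, Hes5 and Hey2), and in the presomitic list 13 of 19 genes had one and 2 held it (Msgn1 and Hes7). Of the 12 largest rises named below, 8 had a window and 2 held it (Frzb and Igf2). Of the 12 largest falls, 6 had a window and 1 held it (Mt2). The T-box half-site TCACACC, found on either strand in 3.98% of all windows, was in no window of the Notch list. In the presomitic list it was in 3 windows, those of Mesp1, Ripply1 and Ripply2. These 2 motifs overlapped in 0 windows. A match of letters is a description of the sequence and shows no binding.

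WNT genes changed in both directions. Of 23 ligand and receptor genes, 22 were tested. Of these, 5 rose and 6 fell, against 7.82% and 10.5% of all genes (median −0.02). Among ligands, Wnt3a, the signal that maintains NMPs, had 40.5 and 26.2 CPM in Tbxt 48 h cells, against 68.4, 74.5 and 64.7 CPM in NMPs (−1.06 ± 0.28, adjusted p = 0.020). That call ended without any 1 of NMP replicates 1, 2 and 3 and without Tbxt 48 h replicate 2 (adjusted p = 0.058 to 0.29). Wnt8a, a ligand of the primitive streak, was near 0, with 0.202 and 0 CPM in Tbxt 48 h cells, against 13.7, 13.7 and 11.3 CPM in NMPs. Wnt5a, a noncanonical ligand that guides cell movement and axis elongation, rose, with 121 and 109 CPM in Tbxt 48 h cells, against 20.7, 28.1 and 25.9 CPM in NMPs (2.17 ± 0.39). Its relative Wnt5b fell (−1.13 ± 0.31, adjusted p = 0.024 by limma). Wnt5b had 53.7 and 47.1 CPM in Tbxt 48 h cells, against 112, 109 and 112 CPM in NMPs. The Wnt5b call ended without NMP replicate 1, without NMP replicate 3 and without either Tbxt 48 h replicate. It also ended at a pseudocount of 0.25 CPM and with no filter. Rspo3, a secreted amplifier of WNT signalling expressed in presomitic mesoderm, had 322 and 288 CPM in Tbxt 48 h cells, against 52.4, 65.6 and 65.5 CPM in NMPs (2.30 ± 0.31). The receptor gene Fzd7 rose as well, with 44.7 and 70.04 CPM in Tbxt 48 h cells, against 10.4, 17.9 and 13.5 CPM in NMPs (1.97 ± 0.33). Libraries of the 2 groups did not overlap for any of these genes, and adjusted p for Wnt8a, Wnt5a, Rspo3 and Fzd7 was at most 0.0035.

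Targets and antagonists of WNT gave 4 rises and 1 fall among 20 tested of 22 (median 0.32). Lef1, the DNA-binding partner of beta-catenin, had 363 and 386 CPM in Tbxt 48 h cells, against 166, 206 and 201 CPM in NMPs (0.98 ± 0.16), and Nkd2, a feedback inhibitor, had 47.5 and 29.2 CPM in Tbxt 48 h cells, against 3.76, 4.82 and 4.64 CPM in NMPs (2.83 ± 0.33). Frzb, a secreted antagonist, had 59.02 and 97.2 CPM in Tbxt 48 h cells, against 1.69, 1.45 and 1.51 CPM in NMPs (4.91 ± 0.76). The antagonist gene Dkk4 went the other way, with 0 and 0.338 CPM in Tbxt 48 h cells, against 23.2, 15.4 and 20.6 CPM in NMPs. Those 4 genes had adjusted p of at most 0.0020. Axin2, the common readout of beta-catenin activity, had 153 and 165 CPM in Tbxt 48 h cells, against 188, 296 and 249.5 CPM in NMPs and did not pass (−0.59 ± 0.69, adjusted p = 0.61), nor did Sp5 (−0.84 ± 0.58, adjusted p = 0.36, and 0.0082 without Tbxt 7 d replicate 1). Dkk1, a clock-linked antagonist, had 91.5 and 65.5 CPM in Tbxt 48 h cells, against 14.6, 17.9 and 16.5 CPM in NMPs, so that the groups lay apart, yet it did not pass in the fit of all 15 libraries (2.18 ± 0.98, adjusted p = 0.16). Its Tbxt 7 d libraries, which enter the pooled spread, held 66.7, 5.74 and 2.37 CPM. Without the first of them, an alternative chosen after seeing the data, its adjusted p was 8.0e-05. Adjusted p values without Tbxt 7 d replicate 1, here and below, all come from that alternative. They are given only for named genes that gained a call in it, not for those that stayed uncalled.

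FGF genes changed in both directions. Of 21 FGF genes, all tested, 3 rose and 5 fell (median −0.08). Fgf9, a ligand gene, had 59.7 and 73.8 CPM in Tbxt 48 h cells, against 1.69, 1.29 and 1.51 CPM in NMPs (4.76 ± 0.64, adjusted p = 0.00047). Fgf8, the main FGF of the tail bud, had 123 and 52.5 CPM in Tbxt 48 h cells, against 284, 214 and 191 CPM in NMPs (−1.48 ± 0.39, adjusted p = 0.021). The Fgf8 call rested on single libraries, with an adjusted p of 0.31 without Tbxt 48 h replicate 2 and 0.076 without NMP replicate 1. Fgf4 had 10.3 and 5.74 CPM in Tbxt 48 h cells, against 13.7, 24.9 and 17.3 CPM in NMPs and did not pass (adjusted p = 0.13). Fgfbp3, a secreted protein that binds FGFs, had 9.31 and 15.5 CPM in Tbxt 48 h cells, against 218, 278 and 198 CPM in NMPs (−4.14 ± 0.24, adjusted p = 6.3e-07). Both Tbxt 48 h libraries lay far below the 3 NMP libraries. The feedback inhibitor gene Spry4 stood at 0.94 ± 0.72 and did not pass (adjusted p = 0.40, and 0.020 without Tbxt 7 d replicate 1). On the same list Dusp4 and Etv4 fell (−1.61 ± 0.35 and −1.78 ± 0.44, adjusted p = 0.0077 and 0.017 by limma). Dusp4 had 18.1 and 18.9 CPM in Tbxt 48 h cells, against 58.2, 64.6 and 52.9 CPM in NMPs. The Dusp4 call ended at a pseudocount of 0.25 CPM and without Tbxt 48 h replicate 2. The Etv4 call ended without NMP replicate 1 and without Tbxt 48 h replicate 2. Spry1, Spry2, Dusp6, Etv5, Spred1 and Il17rd did not pass.

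Most epithelial genes tested fell. Of 19 junction and keratin genes, 17 were tested, and none rose and 12 fell, or 12 of 17 where 10.5% of all genes fell (median −1.72). Cdh1, the cadherin of epithelia, had 0.506 and 0 CPM in Tbxt 48 h cells, against 68.7, 95.7 and 87.7 CPM in NMPs (−6.10 ± 0.34). Epcam, an epithelial adhesion molecule, had 1.82 and 1.86 CPM in Tbxt 48 h cells, against 91.7, 102 and 104 CPM in NMPs (−5.14 ± 0.30). The tight-junction claudins Cldn3 and Cldn6 fell (−3.27 ± 0.38 and −3.04 ± 0.29), with at most 0.607 CPM in Tbxt 48 h cells. St14, a membrane protease, and Spint2, its inhibitor, fell together (−3.47 ± 0.36 and −3.36 ± 0.26), with Spint2 at 15.1 and 9.03 CPM in Tbxt 48 h cells, against 152, 112 and 126 CPM in NMPs. All 6 genes had adjusted p of at most 0.00010. Members that did not pass lay on both sides. Krt8 had 3.29 and 4.3 CPM in Tbxt 48 h cells, against 5.9, 6.27 and 6.91 CPM in NMPs (adjusted p = 0.095) and Krt18 stood at −1.03 ± 0.36 (adjusted p = 0.068, and 0.046 without Tbxt 7 d replicate 1). Krt19 was higher in both Tbxt 48 h libraries, with 4.54 and 2.43 CPM in Tbxt 48 h cells, against 1.17, 1.15 and 0.581 CPM in NMPs (adjusted p = 0.098, and 0.017 without Tbxt 7 d replicate 1). So was Cd24a, a surface glycoprotein gene, with 352 and 407 CPM in Tbxt 48 h cells, against 224, 269.5 and 249.98 CPM in NMPs (adjusted p = 0.13, and 0.026 without Tbxt 7 d replicate 1).

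Transition factors and cadherins changed in both directions. Among 10 tested of 12 transition factors, 3 rose and 2 fell (median 0.07), and among 14 cadherins and protocadherins, all tested, 4 rose and 3 fell (median −0.17). Snai1, the repressor of Cdh1 that drives cells out of the epiblast, had 109 and 87.1 CPM in Tbxt 48 h cells, against 3.24, 6.27 and 6.27 CPM in NMPs (4.02 ± 0.25). Twist1, which acts in later mesenchyme, had 9.01 and 11.8 CPM in Tbxt 48 h cells, against 13.2, 14.96 and 13.2 CPM in NMPs and did not pass (adjusted p = 0.52). Esrp1, a splicing regulator of epithelia, was near 0, with 0.101 and 0 CPM in Tbxt 48 h cells, against 4.02, 5.15 and 5.46 CPM in NMPs. Grhl3, an epithelial transcription factor on the list, rose (1.75 ± 0.32, adjusted p = 0.0025 by limma). It had 7.09 and 14.2 CPM in Tbxt 48 h cells, against 2.07, 2.25 and 2.55 CPM in NMPs. The Grhl3 call ended without Tbxt 48 h replicate 2. Cdh2, the cadherin of mesoderm and neural tissue, had 130.3 and 134 CPM in Tbxt 48 h cells, against 47.6, 80.00 and 62.99 CPM in NMPs (1.07 ± 0.19). Pcdh19, a protocadherin, had 212 and 284 CPM in Tbxt 48 h cells, against 7.26, 12.1 and 11.3 CPM in NMPs (4.49 ± 0.31), while Pcdh1, another protocadherin, fell to 2.02 and 1.86 CPM in Tbxt 48 h cells, against 33.96, 26.2 and 22.99 CPM in NMPs (−3.27 ± 0.29). Every one of these except Twist1 and Grhl3 had an adjusted p of at most 0.0019. Eph receptors and ephrins gave 3 rises and 1 fall among 18, all tested (median −0.07), with Efna1, a membrane-bound ephrin, at 119 and 113 CPM in Tbxt 48 h cells, against 54.6, 48.1 and 49.9 CPM in NMPs (1.17 ± 0.22, adjusted p = 0.0028).

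The matrix list held 28 genes, of which 26 were tested, 10 rose and 4 fell (median 0.62). Chains of the same protein families changed in opposite directions. The laminin chain gene Lama1, made in early embryonic basement membranes, had 39.7 and 32.1 CPM in Tbxt 48 h cells, against 2.98, 3.38 and 4.64 CPM in NMPs (2.99 ± 0.24). Lama5, the chain of mature basement membranes, had 12.96 and 10.3 CPM in Tbxt 48 h cells, against 46.1, 70.4 and 50.04 CPM in NMPs (−2.15 ± 0.41), with an adjusted p of 0.059 without Tbxt 48 h replicate 2. Itga5, the integrin chain that binds fibronectin, rose (1.43 ± 0.25), and Itga3, a chain that binds laminins, fell (−1.54 ± 0.28). Col3a1, a fibrillar collagen of mesenchyme, had 84.5 and 102 CPM in Tbxt 48 h cells, against 3.24, 3.46 and 2.44 CPM in NMPs (4.54 ± 0.41), and Fbn2, a microfibril protein, had 102 and 118 CPM in Tbxt 48 h cells, against 11.5, 16.4 and 11.6 CPM in NMPs (2.99 ± 0.26). Adjusted p was at most 0.0036 over these 6 genes. Fibronectin (Fn1) had 386 and 402 CPM in Tbxt 48 h cells, against 109, 196 and 169 CPM in NMPs, again with no overlap, but did not pass (adjusted p = 0.11). The Sox2 48 h libraries, which enter the pooled spread, held 179 and 762 CPM of it.

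Pluripotency genes fell. Of 26 listed genes, 25 were tested, and none rose and 15 fell (median −1.73, or −1.65 with genes at 0 in a group set to their bound). Pou5f1, the central pluripotency factor that NMPs still held, had 0.658 and 0.675 CPM in Tbxt 48 h cells, against 152, 92.7 and 125 CPM in NMPs (−6.19 ± 0.41). Dppa5a, an RNA-binding protein of pluripotent cells, had 0.641 and 0.338 CPM in Tbxt 48 h cells, against 154, 102 and 119.5 CPM in NMPs (−6.39 ± 0.94). Tdh, the threonine dehydrogenase of stem cells, had 0 and 0.169 CPM in Tbxt 48 h cells, against 87.1, 70.8 and 99.4 CPM in NMPs, and Utf1, a chromatin factor, had 0.101 and 0 CPM in Tbxt 48 h cells, against 40.2, 20.1 and 29.7 CPM in NMPs. All Tbxt 48 h libraries were below 1 CPM for these 4 genes. Zscan10 and Klf5, zinc finger factors, fell (−4.60 ± 0.42 and −3.17 ± 0.39), and Tfcp2l1 was at 0.101 and 0 CPM in Tbxt 48 h cells, against 9.33, 10.9 and 11.3 CPM in NMPs. The falls of these 7 genes had adjusted p of at most 0.0014. Lin28a, an RNA-binding protein that blocks let-7 microRNAs, fell less and stayed abundant, with 224 and 179 CPM in Tbxt 48 h cells, against 378, 363 and 392.1 CPM in NMPs (−0.91 ± 0.15, adjusted p = 0.0016), and Trim71 did not pass (−0.18 ± 0.31, adjusted p = 0.73).

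Caudal epiblast genes fell in part. Of 19 genes, 17 were tested, and 1 rose and 5 fell (median −0.68). Nkx1-2, the homeobox factor of NMPs and caudal neural plate, had 61.96 and 67.00 CPM in Tbxt 48 h cells, against 356, 372 and 353 CPM in NMPs (−2.46 ± 0.27). Cdx1 had 68.03 and 80.8 CPM in Tbxt 48 h cells, against 544, 496 and 436 CPM in NMPs (−2.71 ± 0.36), a larger fold than Cdx2, its partner in trunk elongation, which had 384 and 402 CPM in Tbxt 48 h cells, against 638, 636 and 615 CPM in NMPs (−0.68 ± 0.20). The Cdx2 call ended without any 1 of the 5 libraries (adjusted p = 0.064 to 0.16). Fst, the secreted inhibitor of activin, had 3.85 and 2.87 CPM in Tbxt 48 h cells, against 178, 277 and 241 CPM in NMPs (−5.73 ± 0.32), and Gdf11, a ligand of that family that times the trunk-to-tail transition, rose to 73.9 and 61.4 CPM in Tbxt 48 h cells, against 14.8, 17.9 and 13.6 CPM in NMPs (2.07 ± 0.19). Grsf1, an RNA-binding protein of the list, had 115 and 129.9 CPM in Tbxt 48 h cells, against 986, 1187 and 1020.3 CPM in NMPs (−3.10 ± 0.12). Of these, Nkx1-2, Cdx1, Fst, Gdf11 and Grsf1 had adjusted p of at most 0.00029. Evx1, a homeobox factor of the posterior streak, had 79.3 and 94.00 CPM in Tbxt 48 h cells, against 152, 182 and 171 CPM in NMPs and did not pass (adjusted p = 0.40, and 0.0030 without Tbxt 7 d replicate 1).

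Retinoic acid genes gave 3 rises and 1 fall among 11 tested of 13 counted (median 0.04). Cyp26a1, the degrading enzyme of the tail bud, had 67.02 and 61.3 CPM in Tbxt 48 h cells, against 21.6, 24.1 and 26.8 CPM in NMPs (1.37 ± 0.22, adjusted p = 0.0010). Crabp1, a cellular retinoic acid-binding protein, had 158 and 113 CPM in Tbxt 48 h cells, against 43.8, 31.04 and 28.4 CPM in NMPs (1.95 ± 0.40, adjusted p = 0.0072, and 0.060 without Tbxt 48 h replicate 1). Stra8, a gene first found by its response to retinoic acid, was listed at 0 in both Tbxt 48 h libraries, against 20.7, 18.2 and 11.7 CPM in NMPs, at least 41.7-fold lower with the floor of 3 reads per library. Aldh1a2, which makes retinoic acid in somites, was below the filter, with 5.47 and 3.71 CPM in Tbxt 48 h cells, against 2.33, 3.06 and 2.44 CPM in NMPs.

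Neural progenitor genes split, with 3 rises and 3 falls among 18 tested of 22 (median 0.19). Sox3, a relative of Sox2, had 3.95 and 1.69 CPM in Tbxt 48 h cells, against 33.3, 23.6 and 23.6 CPM in NMPs (−2.91 ± 0.28). The zinc finger genes Zic2 and Zic5 fell (−1.51 ± 0.29 and −2.06 ± 0.28), with Zic5 at 2.28 and 2.62 CPM in Tbxt 48 h cells, against 12.4, 15.3 and 12.5 CPM in NMPs. Zic1 of the same family was higher, with 74.3 and 129 CPM in Tbxt 48 h cells, against 20.5, 30.4 and 30.3 CPM in NMPs (1.84 ± 0.36), and its adjusted p was 0.0054, or 0.090 without Tbxt 48 h replicate 2. Fabp7, a fatty acid-binding protein of radial glia, rose from a low level, with 16.2 and 8.78 CPM in Tbxt 48 h cells, against 1.94, 0.965 and 1.16 CPM in NMPs (2.48 ± 0.40). Among 11 tested of 17 neuron genes, 1 rose and 3 fell (median −1.01). Stmn2 and Ina, which encode a microtubule regulator and an intermediate filament protein of neurons, had 5.77 and 5.74 CPM in Tbxt 48 h cells, against 52.9, 54.8 and 66.3 CPM in NMPs, and 1.52 and 3.54 CPM in Tbxt 48 h cells, against 43.03, 52.6 and 53.3 CPM in NMPs. They and the homeobox gene Mnx1 fell (−3.12 ± 0.35, −3.90 ± 0.54 and −1.61 ± 0.26). The calls named here other than Zic1 had adjusted p of at most 0.0031.

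Hox genes, whose higher paralog numbers mark more posterior levels, were mostly not called, and the calls were largely rises. In paralogs 1 to 4, 3 of 11 counted genes rose and none fell (median 0.52), in paralogs 5 to 8, 3 of 10 tested rose and 1, Hoxb6, fell (median 0.15), and in paralogs 9 to 13, 6 of 15 tested rose and none fell (median 0.55). Hoxc10 had 137 and 79.4 CPM in Tbxt 48 h cells, against 0.907, 2.09 and 3.31 CPM in NMPs (5.16 ± 0.37), the largest rise among genes that met the naming rule. Hoxa10 had 31.2 and 32.4 CPM in Tbxt 48 h cells, against 2.59, 2.57 and 2.9 CPM in NMPs (3.15 ± 0.25), and Hoxd10 had 9.47 and 7.43 CPM in Tbxt 48 h cells, against 0, 0 and 0.232 CPM in NMPs. Hoxa9 and Hoxc9 rose to similar extents (2.22 ± 0.20 and 2.16 ± 0.20), while Hoxb9 had 147 and 120.2 CPM in Tbxt 48 h cells, against 145, 90.1 and 90.2 CPM in NMPs, overlapped between the groups and did not pass (adjusted p = 0.49). Paralogs 11 to 13 had no call. Hoxa11 had 1.62 and 1.18 CPM in Tbxt 48 h cells, against 0.259, 0 and 0.464 CPM in NMPs (adjusted p = 0.11, and 0.026 without Tbxt 7 d replicate 1), and Hoxa13 had 0.101 and 0.169 CPM in Tbxt 48 h cells, against 0.259, 0.161 and 0.116 CPM in NMPs. Hoxc13 had 1.01 and 1.18 CPM in Tbxt 48 h cells, against 2.85, 4.66 and 4.06 CPM in NMPs, lower without overlap (adjusted p = 0.22, and 0.046 without Tbxt 7 d replicate 1). Hoxb13 had 0 and 0.169 CPM in Tbxt 48 h cells, against 0.518, 1.13 and 0.581 CPM in NMPs. Hoxd13 had 2.43 and 1.52 CPM in Tbxt 48 h cells, against 0.778, 1.13 and 1.16 CPM in NMPs, and neither passed (adjusted p = 0.57 and 0.81).

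More anterior genes varied. Hoxb6 had 19.03 and 22.3 CPM in Tbxt 48 h cells, against 39.7, 50.01 and 45.9 CPM in NMPs (−1.09 ± 0.34, adjusted p = 0.040), a call that ended without any 1 of the 5 libraries (adjusted p = 0.069 to 0.16). Hoxd8 had 33.5 and 31.4 CPM in Tbxt 48 h cells, against 3.11, 4.5 and 2.9 CPM in NMPs (2.91 ± 0.58, adjusted p = 0.0060, and 0.059 without Tbxt 48 h replicate 2). Hoxc6 (1.79 ± 0.22) and Hoxd3 (2.76 ± 0.42) rose, and Hoxb1 had 104 and 104 CPM in Tbxt 48 h cells, against 89.8, 99.5 and 83.6 CPM in NMPs, with no change called (adjusted p = 0.76). Hoxd4 had 135 and 106 CPM in Tbxt 48 h cells, against 32.5, 29.6 and 30.7 CPM in NMPs, without overlap, and did not pass (adjusted p = 0.11, and 0.00072 without Tbxt 7 d replicate 1). Hoxc10, Hoxa10, Hoxd10, Hoxa9, Hoxc9, Hoxc6 and Hoxd3 had adjusted p of at most 0.00085.

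**Figure D2:**
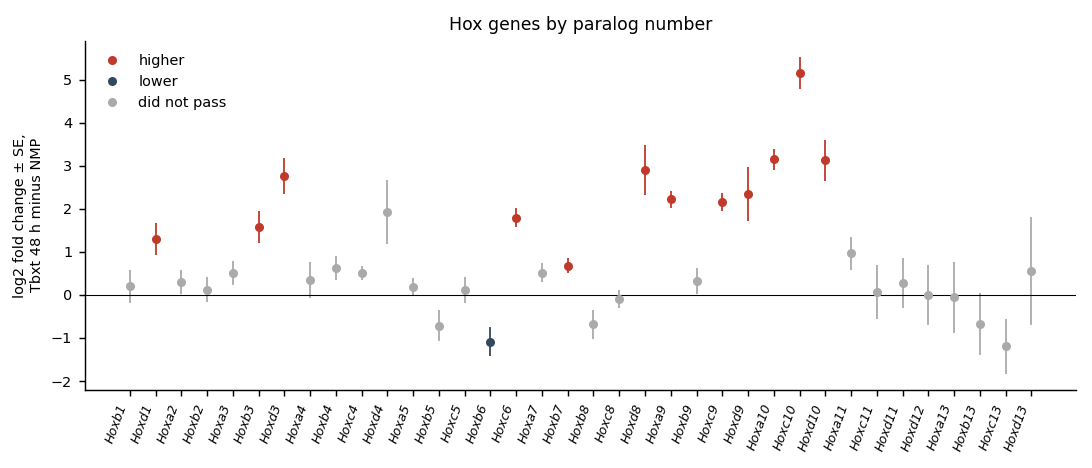
Log2 fold change of Hox genes, Tbxt 48 h minus NMP, with bars of ± 1 SE from the limma fit, ordered by paralog number on the x axis. Red points rose, dark blue points fell and grey points did not pass. Hoxc10 at 5.16 and Hoxa10 at 3.15 stand highest among paralogs 9 and 10, and paralogs 11 to 13 to their right are all grey, with Hoxc13 at −1.20.

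Growth factor and migration genes changed in both directions. Of 28 genes, 27 were tested, and 11 rose and 6 fell (median 0.38). Igf2, the fetal growth factor, had 1665 and 1659 CPM in Tbxt 48 h cells, against 54.4, 65.8 and 72.6 CPM in NMPs (4.68 ± 0.45, adjusted p = 0.00015). Gm49394 held nearly the same values, with 1661 and 1657 CPM in Tbxt 48 h cells, against 54.1, 65.8 and 72.6 CPM in NMPs, so the share of reads that belongs to either is uncertain. The receptor gene Igf1r rose (1.10 ± 0.20), and Igfbp2, whose protein binds the ligand, fell to 46.4 and 33.4 CPM in Tbxt 48 h cells, against 185, 161 and 156 CPM in NMPs (−2.06 ± 0.29). For stem cell factor, the ligand gene Kitl rose to 56.3 and 68.2 CPM in Tbxt 48 h cells, against 11.1, 19.8 and 18.6 CPM in NMPs (1.89 ± 0.28), and its receptor gene Kit fell (−1.88 ± 0.27).

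The apelin system changed the other way round. Apela, an early embryonic ligand, had 5.92 and 4.05 CPM in Tbxt 48 h cells, against 98.4, 74.8 and 103 CPM in NMPs (−3.96 ± 0.23), and the second ligand gene, Apln, fell to 4.25 and 3.88 CPM in Tbxt 48 h cells, against 38.4, 40.2 and 40.3 CPM in NMPs (−3.00 ± 0.29). Their receptor gene Aplnr, which marks nascent mesoderm, had 22.4 and 13.7 CPM in Tbxt 48 h cells, against 2.59, 3.86 and 4.64 CPM in NMPs (2.00 ± 0.38). Cxcr4, a chemokine receptor of migrating cells, had 209 and 242 CPM in Tbxt 48 h cells, against 24.2, 18.98 and 18.98 CPM in NMPs (3.39 ± 0.25). S1pr3, a receptor for sphingosine phosphate, had 31.3 and 22.3 CPM in Tbxt 48 h cells, against 0.13, 0.322 and 0.116 CPM in NMPs. The peptide receptor gene Npbwr1 was listed at 0 in every NMP library and had 20.9 and 26.2 CPM in Tbxt 48 h cells, at least 57.8-fold higher with the floor of 3 reads per library. Gpr15lg, a gene for a secreted receptor ligand, had 38.6 and 25.5 CPM in Tbxt 48 h cells, against 0.259, 0.161 and 0.464 CPM in NMPs (4.65 ± 0.43). Across the genes named for growth factors, apelin and other receptors, adjusted p was at most 0.0031, and libraries of the groups did not overlap.

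**Figure D3:**
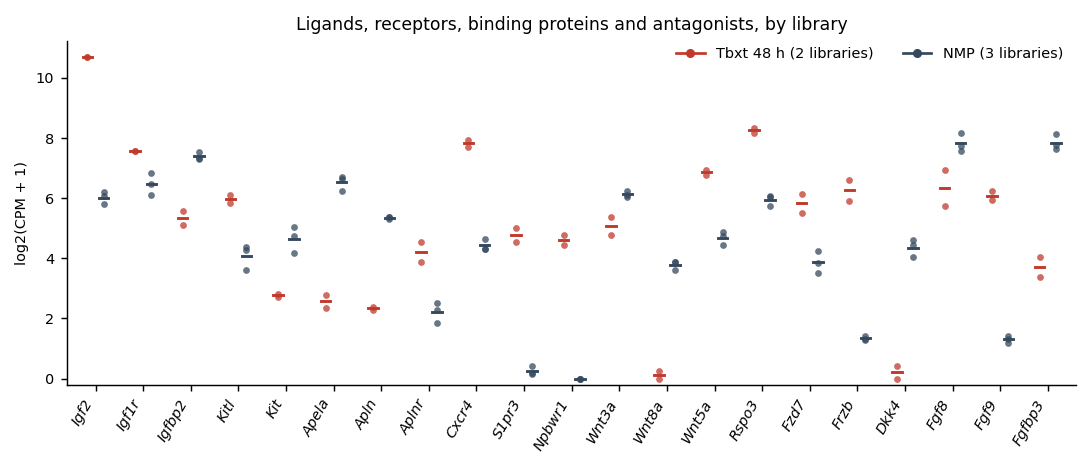
Levels of 21 genes for ligands, receptors, binding proteins and antagonists on a log2(CPM + 1) axis, with a point per library and a line at the group mean, Tbxt 48 h in red and NMP in dark blue. Igf2, Cxcr4, Rspo3, Frzb and Fgf9 were higher in both Tbxt 48 h libraries than in the 3 NMP libraries, and Igfbp2, Kit, Apela, Apln, Wnt8a and Fgfbp3 were lower.

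BMP and TGF-beta genes gave 4 rises and 3 falls among 23, all tested (median 0.34). Bmp2 had 13.1 and 21.8 CPM in Tbxt 48 h cells, against 0.648, 1.45 and 2.09 CPM in NMPs (2.95 ± 0.35), and the ligand genes Lefty1 and Gdf3 of the nodal branch were near 0, with 0.101 and 0.338 CPM in Tbxt 48 h cells, against 23.3, 16.1 and 14.5 CPM in NMPs, and 0.101 and 0 CPM in Tbxt 48 h cells, against 9.59, 9.49 and 8.48 CPM in NMPs. Their adjusted p was at most 0.00015.

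Sugar uptake genes fell while respiratory chain genes were not called. Of 19 glycolysis genes, all tested, none rose and 6 fell (median −0.58), and of 19 respiratory chain genes, 16 were tested with 0 calls by limma (median 0.06), 3 at an unadjusted p under 0.05 and 0 by voom, the limma method for counts, on inferred reads. Slc2a1, a glucose transporter, had 155 and 209.9 CPM in Tbxt 48 h cells, against 804, 972 and 801 CPM in NMPs (−2.24 ± 0.21), and Slc2a3, another, had 149 and 119.99 CPM in Tbxt 48 h cells, against 691, 993 and 726 CPM in NMPs (−2.56 ± 0.40). Pdk1, a kinase that keeps pyruvate out of the mitochondrion, had 14.6 and 11.8 CPM in Tbxt 48 h cells, against 91.6, 97.8 and 141 CPM in NMPs (−2.95 ± 0.40). Ldha, which makes lactate, had 744 and 857 CPM in Tbxt 48 h cells, against 683, 764 and 734 CPM in NMPs and did not pass (adjusted p = 0.81). Among 10 tested of 13 hypoxia genes, 2 rose and 3 fell (median −0.08), with Ddit4, an inhibitor of mTOR, at 129.7 and 71.1 CPM in Tbxt 48 h cells, against 382, 363 and 432 CPM in NMPs (−2.02 ± 0.25). The genes said to fall here had adjusted p of at most 0.0016.

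Of 21 proliferation genes, all tested, 2 rose and 7 fell (median −0.20). The rises were Ccnd2, a G1 cyclin, at 832 and 899 CPM in Tbxt 48 h cells, against 273, 357 and 358 CPM in NMPs (1.40 ± 0.15), and Cdkn1c, an inhibitor of cyclin-dependent kinases, at 1.40 ± 0.17. Cdkn1b, an inhibitor of the same family, fell to 7.19 and 3.71 CPM in Tbxt 48 h cells, against 15.2, 20.9 and 22.8 CPM in NMPs (−1.71 ± 0.25). Ccnb2, a mitotic cyclin, fell by less (−0.90 ± 0.15). p53 targets gave none higher and 3 lower of 13, all tested (median −0.39), with Trp53inp1 at −1.75 ± 0.19. These 5 genes had adjusted p of at most 0.0013.

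Markers of other tissues were mostly low in Tbxt 48 h cells. Endothelial and blood genes had 2 of 12 members tested and 1 rise, Lmo2, a cofactor of blood and endothelial progenitors. Lmo2 had 257 and 357 CPM in Tbxt 48 h cells, against 31.9, 26.7 and 37.6 CPM in NMPs (3.22 ± 0.34, adjusted p = 5.3e-05), while the defining markers Kdr, Pecam1, Cdh5, Tal1 and Etv2 summed to 1.01 to 1.62 CPM in Tbxt 48 h cells and 1.45 to 2.64 CPM in NMPs. The 5 endoderm markers summed to 3.54 to 4.25 CPM in Tbxt 48 h cells and 9.85 to 10.9 CPM in NMPs, and the 3 node markers to 0.304 to 0.338 CPM in Tbxt 48 h cells and 0.482 to 1.04 CPM in NMPs. Lateral plate markers summed to 3.14 to 3.54 CPM in Tbxt 48 h cells and 1.13 to 1.94 CPM in NMPs. Neural crest markers summed to 20.1 to 27.2 CPM in Tbxt 48 h cells and 32.8 to 47.8 CPM in NMPs, most of it Tfap2a, and neuron markers to 3.30 to 6.63 CPM in Tbxt 48 h cells and 21.7 to 32.2 CPM in NMPs. Markers of undifferentiated stem cells summed to 7.02 to 11.7 CPM in Tbxt 48 h cells and 28.8 to 39.3 CPM in NMPs, with Nanog at 0 in both Tbxt 48 h libraries. Sox10 of the crest, Hand1 of the lateral plate and Dcx of the neuron markers were also at 0 there. The part of any minor cell type in the results was not tested.

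The remaining lists gave few calls. Neural crest genes had 0 calls by limma among 9 tested of 11 (median −0.32), 1 at an unadjusted p under 0.05 and 1 by voom. Node genes had 2 falls among 5 tested of 9 (median −0.35), endoderm genes 1 fall among 7 of 12 (median −0.53), and lateral plate genes 1 rise among 7 of 15 (median 0.34). Immediate early and stress genes had 1 rise among 13 of 15 (median 0.09), and further T-box and SOX factors 1 rise among 6 of 10 (median −0.36).

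**Figure D4:**
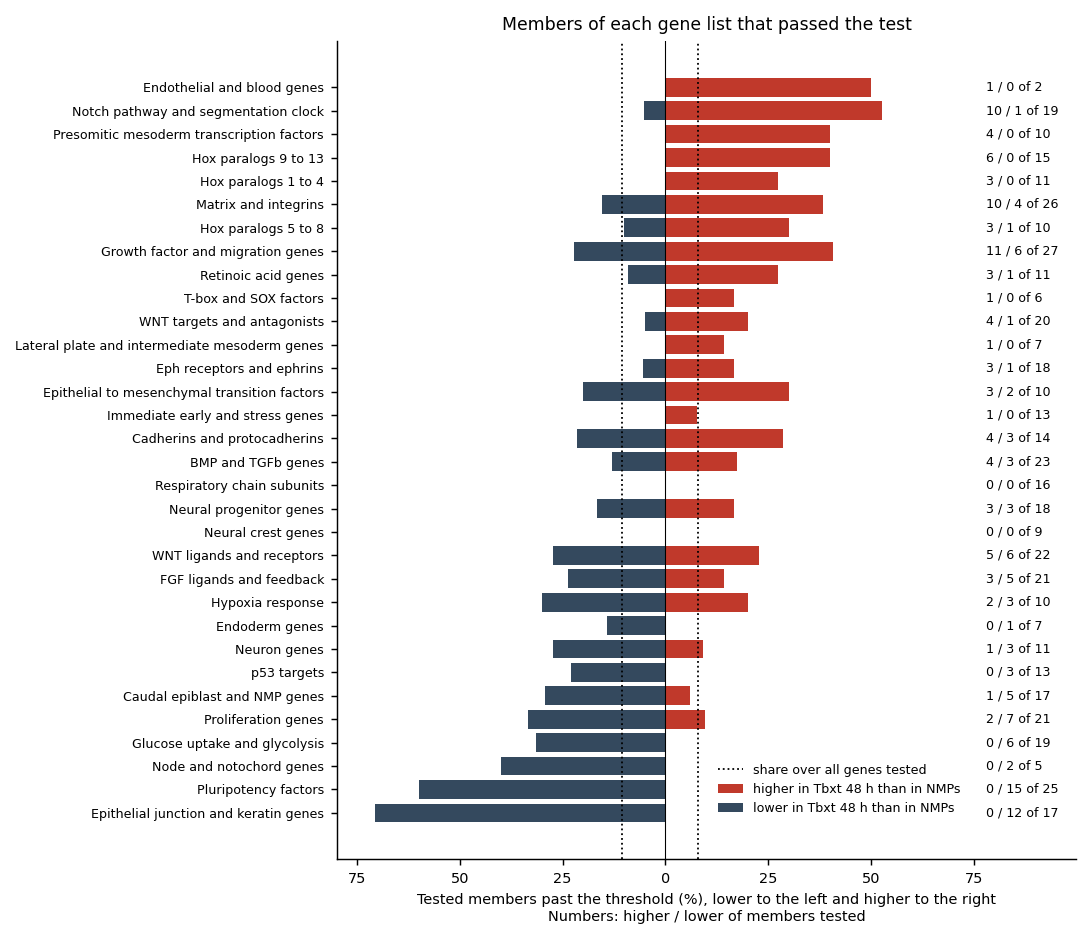
Share of tested members of each gene list that passed at an adjusted p under 0.05, with rises to the right in red and falls to the left in dark blue, in percent. Dotted lines give the shares over all 12943 genes, 7.82% higher and 10.5% lower, and numbers give rises, falls and members tested. The Notch list extends farthest to the right among lists with over 2 tested members, and the junction and pluripotency lists extend farthest to the left.

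The 12 largest rises by the naming rule were Hoxc10, Frzb, Tbx6, Fgf9, Foxc1, Gm49394, Igf2, Gpr15lg, Npbwr1, Col3a1, S1pr3 and Pcdh19. The 12 largest falls were Dppa5a, Tdh, Pou5f1, Cdh1, Fst, Epcam, Pla2g1b, Utf1, F2rl1, Mt2, Zscan10 and Eddm13. Among the falls in no list, Mt2, a metal-binding metallothionein, had 22.8 and 15.7 CPM in Tbxt 48 h cells, against 603, 378 and 532 CPM in NMPs (−4.64 ± 0.35). The phospholipase gene Pla2g1b had 0 and 0.338 CPM in Tbxt 48 h cells, against 44.98, 28.3 and 27.8 CPM in NMPs, and F2rl1, a receptor cleaved by proteases, had 1.42 and 1.01 CPM in Tbxt 48 h cells, against 51.2, 59.98 and 61.8 CPM in NMPs (−4.73 ± 0.40). Eddm13 was at 0.101 and 0.169 CPM in Tbxt 48 h cells, against 33.2, 17.9 and 28.3 CPM in NMPs. These 4 genes had adjusted p of at most 3.2e-05.

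These changes were set against cells of the same time point that kept Sox2 instead, to see which differed between the 2 sorts. Sox2 48 h cells (2 libraries) were sorted as Sox2::mCherry+ after the same 48 h in FGF and CHIR. The contrast of Tbxt 48 h against Sox2 48 h cells called 505 genes, 3.9% of those tested, with 2.05% higher and 1.85% lower. The count was 124 without Tbxt 48 h replicate 2, 322 without Tbxt 48 h replicate 1 and 148 without Sox2 48 h replicate 2. Of the 12 largest rises from NMPs, 7 also exceeded the Sox2 48 h level in Tbxt 48 h cells and 5 did not pass. Of the 12 largest falls, 5 were also lower in Tbxt 48 h cells and 7 did not pass. Many of these changes from NMPs were seen in both sorts. For all 12 falls, both Sox2 48 h libraries lay below every NMP library. For 7 of the 12 rises, both lay above every NMP library, and for 2 both lay below. Hoxc10 was among the rises that did not pass between the sorts, at 137 and 79.4 CPM in Tbxt 48 h cells and 196 and 214 CPM in Sox2 48 h cells (−0.97 ± 0.41, adjusted p = 0.22). Pou5f1 was among such falls, at 0.658 and 0.675 CPM in Tbxt 48 h cells and 2.65 and 3.43 CPM in Sox2 48 h cells (−1.27 ± 0.45, adjusted p = 0.15). For both genes the libraries of the 2 sorts did not overlap, so the lack of a call does not show equal levels.

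By contrast, Fgf9 had 59.7 and 73.8 CPM in Tbxt 48 h cells and 7.57 and 8 CPM in Sox2 48 h cells (2.94 ± 0.70). Frzb had 59.02 and 97.2 CPM in Tbxt 48 h cells and 0.757 and 2.74 CPM in Sox2 48 h cells (4.90 ± 0.84), and Pcdh19 had 212 and 284 CPM in Tbxt 48 h cells and 10.1 and 11.2 CPM in Sox2 48 h cells (4.41 ± 0.34). Mt2 was lower in Tbxt 48 h cells, with 22.8 and 15.7 CPM, than in Sox2 48 h cells, with 153 and 259 CPM (−3.33 ± 0.38). Grsf1 differed in the same direction (−0.84 ± 0.14). These 5 differences had adjusted p of at most 0.039 by limma.

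At 7 d, cells derived from Tbxt::GFP+ cells in FGF and CHIR and sorted as negative for both reporters (3 libraries) gave a further time point, described here with no test. The mean of 6 of the 12 largest rises was more than 2-fold below that at 48 h, and that of 2 more than 2-fold above it. Tbx6 had 2.46, 1.77 and 1.97 CPM in NMPs, 119 and 57.9 CPM at 48 h and 0.291, 0.198 and 0.263 CPM at 7 d. Npbwr1 was listed at 0 in NMPs and again in all 3 libraries at 7 d. Col3a1 had 3.24, 3.46 and 2.44 CPM in NMPs, 84.5 and 102 CPM at 48 h and 3023, 3155 and 3599 CPM at 7 d. Frzb and Foxc1 differed between the 7 d libraries, which held 63.2, 6.93 and 8.43 CPM and 19.5, 0.594 and 0.527 CPM. The first 7 d library stood apart from the other 2 for both genes.

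**Figure D5:**
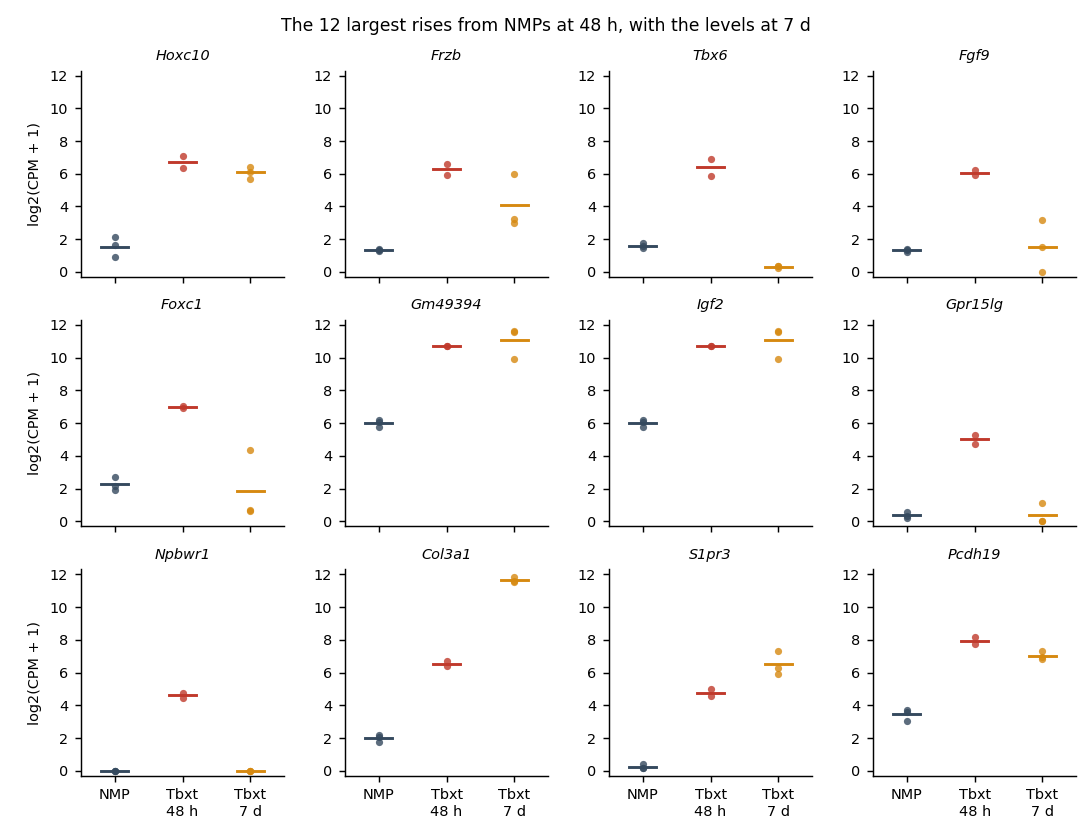
Levels of the 12 largest rises on a log2(CPM + 1) axis in NMPs, in Tbxt 48 h cells and in Tbxt-derived cells at 7 d, with a point per library and a line at the group mean. Tbx6, Fgf9, Gpr15lg and Npbwr1 peak at 48 h, and Col3a1 and S1pr3 are higher at 7 d than at 48 h.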

How the data were processed

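Sorted STR-KI mouse embryonic stem cell derivatives were profiled as 15 bulk libraries in 8 groups. Per the labels' protocols, RNA was extracted on beads, primed with oligo-dT, tagged with molecular identifiers and tagmented. The deposited table holds CPM values (counts scaled to 1000000 per library) made by the authors. Per the submitters' processing notes, STAR 2.7, SAMtools 1.21 and GRCm39 were used. Not given in the sources used here are the counting step, the annotation, the handling of multi-mapping reads and any collapsing of identifiers. Between 71.1% and 78.7% of the values above 0 in a library were whole multiples of 1 read within 0.01 reads, so counts were not recovered and no count model was the main test.

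Of 56092 named genes, 12943 reached 5 CPM in 2 or more libraries and were tested with limma 3.58.1 (trend, robust) in R 4.3.3 on log2(CPM + 1), with all 15 libraries in 8 groups and Benjamini-Hochberg adjustment at 0.05. Depth ranged from 0.799 to 9.88 M reads per library (M, 1000000 reads). Genes detected numbered 20434 to 22356 in Tbxt 48 h libraries and 21939 to 22965 in NMP libraries, and mitochondrial genes held 5.01% to 5.38% of CPM in Tbxt 48 h libraries and 4.04% to 5.07% in NMP libraries. The fit was tested on simulated data.

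Named genes were the sorted reporters, the 12 largest called changes in each direction whose groups stood apart and whose higher group averaged 20 CPM or more, and members of 32 gene lists. A gene of the retinoic acid list and a gene of the list of Hox paralogs 1 to 4 are not reported here, and the counts and medians of both lists leave them out. The members and lists were chosen with earlier results of these data known. The alternatives changed the pseudocount, filter, scaling, weights, libraries, tool, minimum fold or replicate block. Promoters came from RefSeq, GRCm38.p6.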

Additional observations from a re-analysis of the deposited data

Results flagged for a closer look

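Named genes were picked here that rose or fell from NMPs in Tbxt 48 h cells. For each, both Sox2 48 h libraries had to lie on the other side of all NMP libraries. The difference between Tbxt 48 h and Sox2 48 h cells also had to pass by limma. Among genes that rose, the log2 difference, Tbxt 48 h minus Sox2 48 h, was 5.35 for Dll1, 4.43 for Dll3, 3.43 for Rspo3 and 5.20 for Snai1. It was 1.71 for Efna1, 4.89 for Cyp26a1 and 4.34 for Crabp1. For the receptor gene Aplnr it was 3.47, and for Lmo2 it was 3.86. Tbx6 had 119 and 57.9 CPM in Tbxt 48 h cells and 0.757 and 0 CPM in Sox2 48 h cells, at most 3 reads per library, so it is given as levels. Among genes that fell, the log2 difference was −3.75 for Sox3, −2.56 for Zic2 and −2.75 for Zic5. These differences, Tbx6 included, had adjusted p of at most 0.0014. The way the genes were picked fixed the direction and the pass in advance, so neither is a further result.

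Outside the named genes, rows of ERCC spike-in controls held at most 14 reads in any of the 5 libraries. Rows without a gene name held at most 1.31% of CPM.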

How the results depend on the processing

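For Tbxt 48 h against NMP the count of genes was 4834 with array weights, 206 with a 2-fold minimum, 3073 without Tbxt 7 d replicate 1, and 702 to 2069 with 1 library left out. A filter at 20 CPM gave 885 higher and 784 lower, and quantile normalization 1057 higher and 1030 lower. For Tbxt 48 h against Sox2 48 h the count was 1221 with array weights, 1135 in a fit of these groups alone, 57 with a 2-fold minimum, 923 without Tbxt 7 d replicate 1, and 124 to 492 with 1 library left out. Of 109 named genes called against NMP, 100 passed in every alternative that tested them, other than the 2-fold minimum, and 67 in that one too. Genes below the filter of an alternative were not tested in it, and Tbx6 was tested in 16 of the 18 alternatives. The count of 109 leaves out Jag1, Wnt5b, Dusp4, Etv4, Grhl3 and Nanog. Each of those left out was called, but lost its call in at least 1 alternative other than the 2-fold minimum. Within the 109, the 9 that lost theirs in such an alternative were Foxc1, Wnt3a, Fgf8, Cdx2, Hoxb6, Crabp1, Lama5, Zic1 and Hoxd8. Hoxa13, at 3 reads or fewer per library and not called, turned direction with quantile normalization (0.12) and array weights (0.020). The cause was not tested.

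The labels do not say what replicate numbers share. Deviations from group means correlated at 0.48 and 0.457 for same-numbered Tbxt 48 h and NMP libraries and at −0.167 for Tbxt 48 h and Sox2 48 h libraries, over only 2 pairs each. With the replicate block 1717 genes passed against NMP and 360 against Sox2 48 h, and with the Sox2 48 h numbers crossed, an alternative chosen after seeing the data, 433 passed. Of the 138 named genes checked, 44 had a value that was not whole reads in at least 1 of the 5 libraries. Values near 3 reads are limited by depth.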
